A study of Rattus norvegicus with 8 samples.

Results

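Ahdc1, Arid3b, Atg101, Fam155a, Phykpl, Dtx3 and Kat2a are 7 of the 16307 genes measured in rat retina, chosen on the difference between optic nerve crush (ONC) and sham (CTR) channels, which had 1 sign for each of them on all 4 arrays. Because that difference chose them, their levels and differences are given as a description and carry no test. The 7 genes have 8 probes, each spotted once on an array, and 7 probes passed the filter on dim spots, 1 for every gene. The probe left out is the second of 2 for Arid3b.

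The retinas came from 8-week-old female Lister Hooded rats. In the ONC group the right optic nerve was crushed behind the eye with forceps, and in the CTR group the nerve was exposed in the same way with the forceps left unclosed. The rats were euthanized 2 weeks later, and whole retinas, 4 a group, were labeled one by one and hybridized in pairs to 4 Agilent arrays, with a retina in either dye of each array. A crush of the optic nerve cuts off the axons of retinal ganglion cells (RGCs), the neurons that join the retina to the brain, and the comparison asks which transcripts differ in the retina afterwards.

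By the labels, array 1 carries CTR1 in Cy5 and ONC1 in Cy3, and arrays 2 to 4 follow the same order. All CTR channels are therefore red and all ONC channels green, and condition and dye cannot be told apart for any gene. The methods describe another layout, in which each array pairs retinas of one group, so that both dyes occur in each group. Only CTR2, CTR4, ONC1 and ONC3 have the same dye in both sources. The labels were used throughout, since they tie each retina to a channel of a deposited array, while the methods give dyes and partners but not which deposited array held them.

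Markers of RGCs do not follow the labels. Pou4f2, a transcription factor of RGCs, had log2 levels of -4.04, -0.52, -3.95 and -3.02 in CTR1 through CTR4 and -0.03, -0.04, -0.05 and -3.14 in ONC1 through ONC4, where a level is that over the median of its channel. Nefm, a neurofilament of their axons, had log2 levels of -0.21, 2.84, 0.12 and -0.13 in CTR1 through CTR4 and 2.90, 2.99, 2.97 and -0.35 in ONC1 through ONC4. Both were high in CTR2, ONC1, ONC2 and ONC3 and low in the other channels, so that their mean difference under the labels runs opposite to the study's own. A crush that removes RGCs would lower them in ONC, a direction that only CTR2 and ONC4 fit, while CTR1, CTR3, CTR4, ONC1, ONC2 and ONC3 run against it. The direction of a member from CTR to ONC is therefore that of the labels and may not be that of the crush. Of 16 RGC markers listed, 12 passed the filter, and Pou4f1, Pou4f3, Isl2 and Nrn1 gave no value. Their summed log2 level, with Stmn2 the brightest, was 3.99, 5.51, 4.22 and 4.61 in CTR1 through CTR4. In ONC1 through ONC4 it was 5.72, 5.70, 5.73 and 4.25. The signal of different probes does not rank transcripts by abundance, and the brightest weigh most in such a sum. The part of RGC content in the members' differences was not tested. CTR2 and ONC4 stand apart from the rest of their groups, and each member's difference is also given without them, which makes the channels of a group alike in these markers but leaves those that run against the labels. In whole retina, fewer cells of a type and less RNA per cell cannot be told apart.

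The 7 genes work in different places in the cell. Ahdc1 and Arid3b encode DNA-binding proteins, the first with AT-hook motifs that bind the minor groove of AT-rich DNA and the second with an AT-rich interaction domain (ARID), and Kat2a encodes the histone acetyltransferase also called GCN5, the catalytic subunit of the SAGA and ATAC coactivator complexes. Dtx3 encodes a ubiquitin ligase of the deltex family, which is known for its ties to Notch signaling, and Atg101 a subunit of the ULK1 kinase complex that starts autophagosome formation. Fam155a, now also named Nalf1, encodes an auxiliary subunit of NALCN, the channel for the background sodium leak that helps to set the resting potential of neurons, and Phykpl a pyridoxal phosphate enzyme that breaks down phosphorylated hydroxylysine.

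The array reports on each gene through a probe of 60 bases, and the account rests on what these probes bind. The sequences are those of the array design, from 5′ to 3′, with coordinates on the rat genome build rn4 as the array files give them. Exon and untranslated region annotation for that build was not used here, so their place in the transcripts is not given, and probes that may lie in an untranslated region are shown as 30 of their bases, the first 30 except for Hnrnpab, where they are the last 30. Capitals in the Dtx3 and Kat2a probes mark a stop triplet that closes an open reading frame. The Dtx3 probe lies at chr7:67145477-67145536 on the minus strand and the Kat2a probe at chr10:89642508-89642567 on the minus strand. The Atg101 probe lies at chr7:140033208-140033267 on the plus strand, and the stretch of the Ahdc1 probe at chr5:152034777-152034806 on the minus strand.
Dtx3: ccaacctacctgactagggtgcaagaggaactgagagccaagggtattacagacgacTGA
Kat2a: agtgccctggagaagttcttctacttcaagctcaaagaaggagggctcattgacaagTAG
Atg101: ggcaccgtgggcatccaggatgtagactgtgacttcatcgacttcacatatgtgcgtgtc
Ahdc1: ttgttggcaggacacacccaaagatccaag

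For Arid3b, Fam155a and Phykpl a second probe bears on the same transcript or the same bases. The Arid3b probe that was kept, A_44_P965869, lies at chr8:61561920-61561979, with its stretch shown here at chr8:61561950-61561979. The dim probe left out, A_44_P483197, lies at chr8:61567230-61567289, and the first coordinates of both whole probes are 5310 bases apart. Both are on the minus strand. For Fam155a, A_64_P037000 carries the gene's name, with its stretch at chr16:85623025-85623054. A_44_P648671 is filed under a transcript name but described as Fam155a, and it lies 624 bases from the former, at chr16:85622401-85622460, both on the plus strand. The Phykpl probe, with its stretch at chr10:37117684-37117713 on the plus strand, shares 56 bases with a probe for Hnrnpab, an RNA-binding protein, whose stretch lies at chr10:37117688-37117717 on the minus strand. Capitals in this pair mark the 26 shared bases that both stretches show, read as reverse complements of each other, and the lower-case bases of the Hnrnpab stretch are shared too but lie past the end of the Phykpl stretch.
Arid3b, kept: atttgattcttcaggaagtatttgcatctc
Arid3b, dim: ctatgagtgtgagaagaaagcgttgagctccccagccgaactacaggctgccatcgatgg
Fam155a, by name: ctgtgttttaatgtttggaggttttctttg
Fam155a, by description: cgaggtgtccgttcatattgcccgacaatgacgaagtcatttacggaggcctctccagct
Phykpl: tccgGGGGAAATTTTAAATAAGATGCACAT
Hnrnpab: tcccATGTGCATCTTATTTAAAATTTCCCC

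Under the labels, Ahdc1, Phykpl, Fam155a and Kat2a were higher in the ONC channels and Atg101, Arid3b and Dtx3 lower. Of the 7 genes, 6 were called by limma at an adjusted p under 0.05 and Kat2a was not, where 0.497% of all genes were called, 81 of 16307, with 38 higher and 43 lower. All 7 had 1 sign on the 4 arrays, as 39.4% of all genes had, and in all 7 the ONC and CTR channels did not overlap, as in 12.7% of all genes. Of the 7 probes kept, 6 were called, beside 0.608% of all 18599 probes, and all 7 had 1 sign, beside 39.8% of all probes. These shares stand beside the members' counts and nothing is read from them, because the same contrast chose the members. The called genes lie close to the threshold, with a smallest adjusted p of 0.0418 by limma. With normexp, and with any retina but ONC2 left out, limma called 0 genes, members included, and after Benjamini-Hochberg the methods' t-test called 0 of the 7. With the array as a replicate block the number of called genes was 1254.

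**Figure D1:**
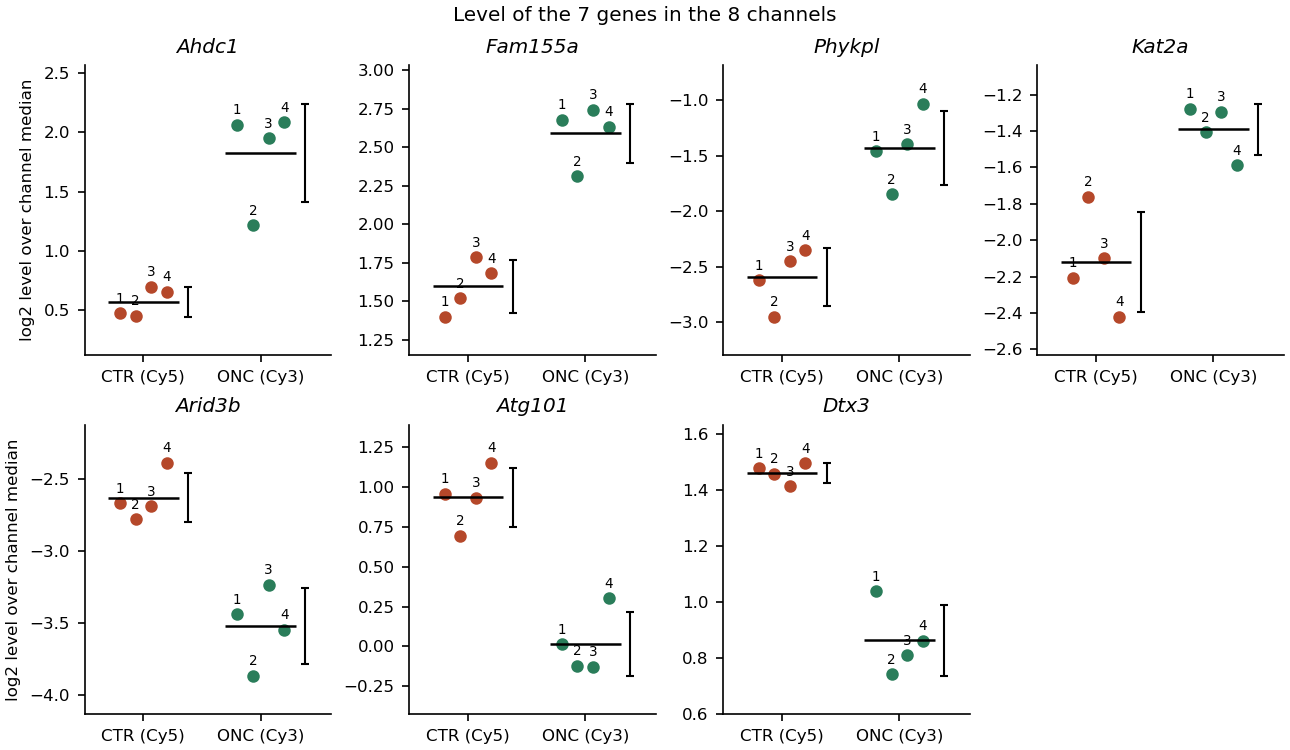
Log2 level of each of the 7 genes over the median of its channel (vertical axis) in the 4 CTR channels, all in Cy5, and the 4 ONC channels, all in Cy3. Each point is a channel with its array number, the line is the group mean and the bar the mean ± 1 SD (n = 4); the groups do not overlap in any panel, and the axes differ between panels.

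Ahdc1, among the regulators of transcription, had log2 levels of 0.47, 0.45, 0.70 and 0.65 in CTR1 through CTR4 and of 2.07, 1.22, 1.95 and 2.09 in ONC1 through ONC4. The CTR channels lay close together and ONC2 lay well below the other ONC channels, though still above every CTR channel. The mean level was 0.57 ± 0.12 (SD, n = 4) in CTR and 1.83 ± 0.41 (SD, n = 4) in ONC, a log2 difference of 1.26, or 2.40-fold. Within arrays 1 to 4 the difference of Ahdc1 was 1.59, 0.76, 1.26 and 1.43, with an SD of 0.36, and 89.6% of all genes had a lower SD over the arrays. Ahdc1 is thus the least even of the 7 genes from array to array. The share of genes with a lower SD was 82.4% for Arid3b, 77.9% for Kat2a and 65.7% for Fam155a. It was 28.3% for Dtx3, 28.2% for Phykpl and 25.4% for Atg101. Without CTR2 and ONC4 its difference was 1.14.

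Arid3b is dim. Its log2 levels were -2.67, -2.78, -2.69 and -2.39 in CTR1 through CTR4 and -3.44, -3.87, -3.23 and -3.55 in ONC1 through ONC4. The highest ONC channel, ONC3, lay 0.45 below the lowest CTR channel, CTR2. The mean level of Arid3b was -2.63 ± 0.17 (SD, n = 4) in CTR and -3.52 ± 0.26 (SD, n = 4) in ONC, a log2 difference of -0.89, or 1.85-fold. Within arrays 1 to 4 it was -0.77, -1.08, -0.55 and -1.16, with an SD of 0.28. Without CTR2 and ONC4 the difference of Arid3b was -0.93.

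Kat2a had log2 levels of -2.21, -1.76, -2.10 and -2.42 in CTR1 through CTR4 and of -1.28, -1.41, -1.29 and -1.59 in ONC1 through ONC4. The nearest channels of the 2 groups, CTR2 and ONC4, lay 0.17 apart on the log2 scale, less than the SD of the CTR channels. The mean level of Kat2a was -2.12 ± 0.28 (SD, n = 4) in CTR and -1.39 ± 0.14 (SD, n = 4) in ONC, a log2 difference of 0.73, or 1.66-fold. Its differences on arrays 1 to 4 were 0.93, 0.35, 0.80 and 0.83, with an SD of 0.26. The 0.35 of Kat2a on array 2 is the value of any member nearest to a change of sign, while the second Fam155a probe, with both signs among its arrays, lies outside the rule. The difference of Kat2a was 0.91 without CTR2 and ONC4, which also stand apart from their groups in RGC markers.

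Dtx3 had log2 levels of 1.48, 1.46, 1.41 and 1.50 in CTR1 through CTR4 and of 1.04, 0.74, 0.81 and 0.86 in ONC1 through ONC4. The CTR channels of Dtx3 were within 0.08 of each other, and ONC1 was the highest of the ONC channels. The mean level was 1.46 ± 0.035 (SD, n = 4) in CTR and 0.86 ± 0.13 (SD, n = 4) in ONC, a log2 difference of -0.60, or 1.51-fold, the smallest of the 7 genes. Within arrays 1 to 4 the difference of Dtx3 was -0.44, -0.72, -0.61 and -0.63, with an SD of 0.12, and 28.3% of all genes had a lower SD. Without CTR2 and ONC4 it was -0.60, the same as with them.

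Atg101 had log2 levels of 0.96, 0.69, 0.93 and 1.15 in CTR1 through CTR4 and of 0.01, -0.12, -0.13 and 0.30 in ONC1 through ONC4. CTR4 and ONC4, on the same array, were the highest channels of their groups, and the groups lay 0.39 apart. The mean level of Atg101 was 0.93 ± 0.19 (SD, n = 4) in CTR and 0.02 ± 0.20 (SD, n = 4) in ONC, a log2 difference of -0.92, or 1.89-fold. Because both channels of an array moved together, the difference of Atg101 within arrays was even, at -0.94, -0.81, -1.06 and -0.85 with an SD of 0.11, the lowest of the 7 genes. Without CTR2 and ONC4 it was -1.09.

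Fam155a, by the probe that carries its name, had log2 levels of 1.40, 1.52, 1.79 and 1.68 in CTR1 through CTR4 and of 2.68, 2.31, 2.74 and 2.63 in ONC1 through ONC4. ONC2 was the lowest ONC channel and lay 0.53 above CTR3, the highest CTR channel. The mean level of Fam155a was 1.60 ± 0.17 (SD, n = 4) in CTR and 2.59 ± 0.19 (SD, n = 4) in ONC, a log2 difference of 0.99, or 1.99-fold. Within arrays 1 to 4 it was 1.28, 0.79, 0.96 and 0.95, with an SD of 0.20. Without CTR2 and ONC4 the difference of Fam155a was 0.95.

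Phykpl had log2 levels of -2.62, -2.95, -2.45 and -2.35 in CTR1 through CTR4 and of -1.46, -1.85, -1.39 and -1.03 in ONC1 through ONC4. Array 2 held the lowest channel of Phykpl in both groups and array 4 the highest. The mean level was -2.59 ± 0.26 (SD, n = 4) in CTR and -1.43 ± 0.33 (SD, n = 4) in ONC, a log2 difference of 1.16, or 2.24-fold. The differences of Phykpl within arrays 1 to 4 were 1.16, 1.10, 1.06 and 1.32, with an SD of 0.12, well under the spread of its channels. Without CTR2 and ONC4 the difference of Phykpl was 0.91.

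Ordered by the size of the log2 difference, the 4 genes higher in ONC were Ahdc1, Phykpl, Fam155a and Kat2a, and the 3 genes lower were Atg101, Arid3b and Dtx3. The differences of Ahdc1 and Phykpl, those of Phykpl and Fam155a, and those of Atg101 and Arid3b each lay within 1 SD over the arrays of at least 1 gene of the pair. CTR2 and ONC4 were also set against the other channels of their groups. Nefm differed by 2.91 in CTR2 from the mean of the other CTR channels on the log2 scale and by -3.31 in ONC4 from the other ONC channels, and Tubb3, a tubulin of neurons rich in RGCs, by 0.47 and -0.49. The members' departures lay between -0.48 for Phykpl and 0.48 for Kat2a in CTR2, and between -0.26 for Kat2a and 0.54 for Phykpl in ONC4. Kat2a alone of the 7 genes departed in the direction of the markers in both channels, in CTR2 by about as much as Tubb3. Over CTR2, CTR4, ONC1 and ONC3 alone, the channels whose dye both sources give alike, the members' differences kept their signs and ran from -0.98 for Atg101 to 1.46 for Ahdc1. In these 4 channels, too, CTR is red and ONC green.

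**Figure D2:**
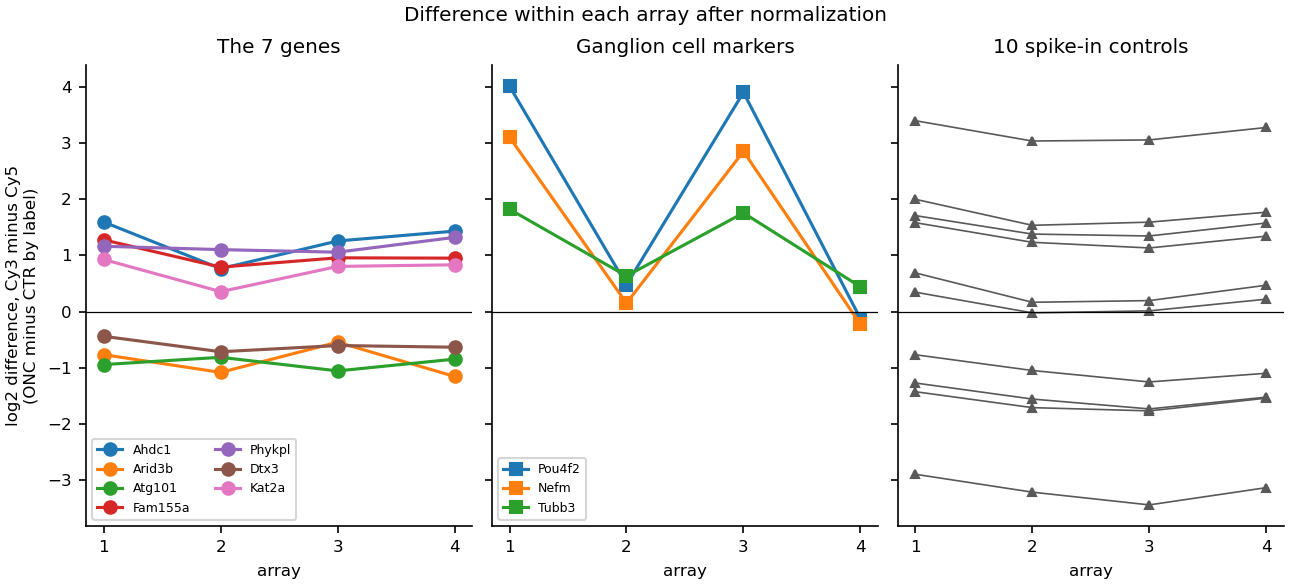
Log2 difference within each array, Cy3 minus Cy5 or ONC minus CTR by label (vertical axis, shared by the panels), on arrays 1 to 4 for the 7 genes, for 3 RGC markers and for 10 spike-in control transcripts. Lines join the values of a gene or control. The 7 genes keep their side of 0 on every array. Pou4f2 and Nefm are far above 0 on arrays 1 and 3 and lie from -0.23 to 0.48 on arrays 2 and 4.

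How even a difference is over the arrays was set beside spike-in control transcripts, which such arrays measure and which, in the usual kits, are added in different amounts to the dyes, so that their ratios are not read as dye effects. The 10 kinds of spike-in, with 24 to 31 spots each, had mean Cy3 minus Cy5 values from -3.17 to 3.19 on the log2 scale, and 9 of 10 had 1 sign on all arrays. Their SD over the arrays ran from 0.16 to 0.25. It was 0.11 for Atg101 to 0.36 for Ahdc1 among the members, with a median of 0.16 over all genes. The members were chosen on their difference over these arrays, and spike-ins carry no variation between retinas. These SDs are therefore a description, and nothing about the members is read from them. Each member rests on a single spot per array. Over 870 probes with at least 8 kept spots, the SD of the within-array difference between spots of a probe was 0.14 in the median and 0.23 at the 90th percentile. This is the error of a spot and not that between retinas.

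The signal behind the members differs widely. Foreground over local background was lowest for Arid3b, from 4.12 to 5.70 in CTR and from 3.35 to 5.06 in ONC, and the scanner software marked Arid3b as well above background in 7 of 8 channels. For Phykpl the ratio was 4.22 to 5.16 in CTR and 11.5 to 15.9 in ONC, and for Kat2a 4.14 to 10.2 in CTR and 7.82 to 19.3 in ONC. The ratio was 28.7 or more for Ahdc1, 25.3 or more for Atg101, 60.4 or more for Fam155a and 39.6 or more for Dtx3. Over whole channels, and not the members' spots alone, median local background was 55.0 to 56.5 in red and 26.0 to 29.5 in green. A ratio in CTR and a ratio in ONC are therefore not on the same footing.

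**Figure D3:**
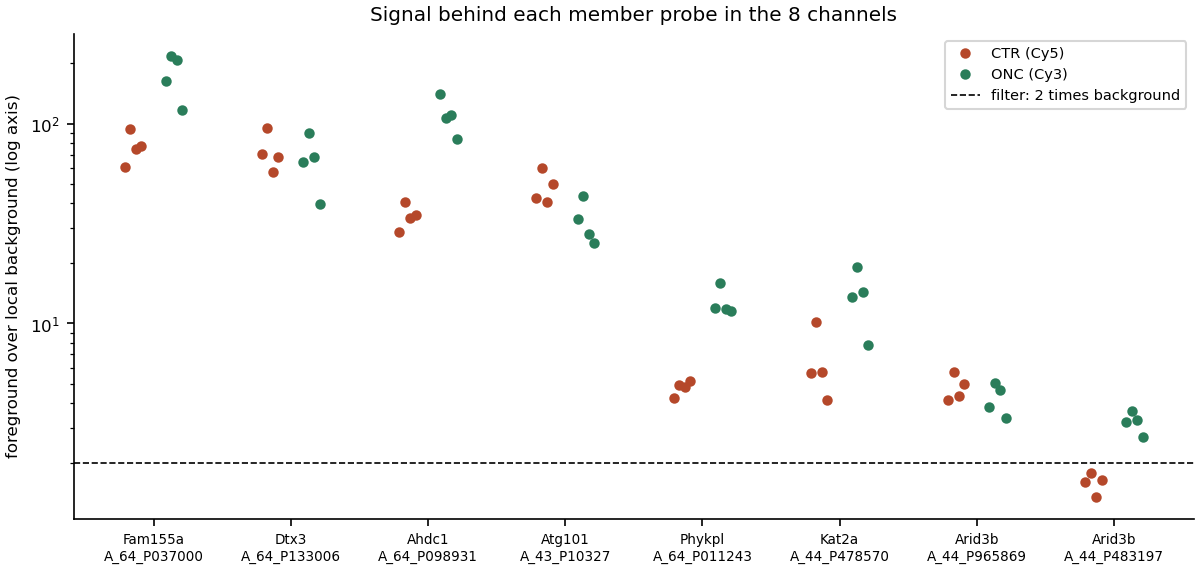
Mean foreground over median local background (vertical log axis) for the 8 probes of the 7 genes, with a point for each of the 8 channels, CTR in Cy5 and ONC in Cy3. The dashed line is the filter of 2 times background; only the dim Arid3b probe falls under it, in all 4 CTR channels.

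Before normalization the dyes differed over whole arrays, with a median log2 Cy3 over Cy5 of -0.50, -0.32, -0.42 and -1.22 on arrays 1 to 4. The mean log2 ratio without normalization was 0.57 for Ahdc1, 0.67 for Phykpl, 0.28 for Fam155a and 0.22 for Kat2a. For Fam155a it was -0.42 and for Kat2a -0.16 on array 4, the array with the strongest red excess. Without normalization the mean log2 ratio was -1.59 for Atg101, -1.28 for Dtx3 and -1.08 for Arid3b, so that no member changed its mean sign. The scaling of each channel to its median, with no loess, gave -0.42 for Arid3b in place of -0.89, and the scanner software's processed signal gave -1.35.

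A second probe for Fam155a passed the filter. A_44_P648671, described as Fam155a, had log2 levels of -1.04, -0.86, -0.51 and -0.58 in CTR1 through CTR4 and of -0.48, -1.05, -0.50 and -0.72 in ONC1 through ONC4. Its groups overlap widely, at -0.75 ± 0.25 (SD, n = 4) in CTR and -0.69 ± 0.26 (SD, n = 4) in ONC. Its difference was 0.06, with 0.55, -0.19, 0.00 and -0.14 on arrays 1 to 4, where the probe named Fam155a had 0.99. The differences of both Fam155a probes thus lay 0.94 apart. Because the 0.99 of the named probe chose the gene, the distance is a description and is not ranked against other genes. With both probes averaged, an alternative chosen after seeing the data, the difference of Fam155a was 0.52. Which transcripts of Fam155a each probe binds was not tested.

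The dim Arid3b probe, A_44_P483197, reached 1.36 to 1.79 times background in CTR and 2.70 to 3.65 times in ONC, and 3 of 8 channels were well above background. With no filter and a normexp background its log2 difference was 0.11, with 0.09, 0.13, 0.26 and -0.04 on arrays 1 to 4. The kept Arid3b probe had -0.63 in the same setting, with -0.56, -0.83, -0.39 and -0.74. Averaged over both probes, the difference of Arid3b in that setting was -0.26. At this signal the sign of the dim probe cannot be read, and its value says nothing for or against that of the kept probe.

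At the Phykpl site both strands are read by probes. The Hnrnpab probe that shares 56 bases with the Phykpl probe, A_64_P102346, had a log2 difference of 0.01, with 0.02, 0.02, 0.00 and 0.01 on arrays 1 to 4. A second Hnrnpab probe, A_64_P146984, had 0.12, with 0.31, -0.01, 0.12 and 0.05. Phykpl had 1.16 on the opposite strand. Since the bases are shared, whether the signal at the Phykpl probe comes from Phykpl transcripts alone is uncertain, and the strand each probe binds in the labeled material was not tested.

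**Figure D4:**
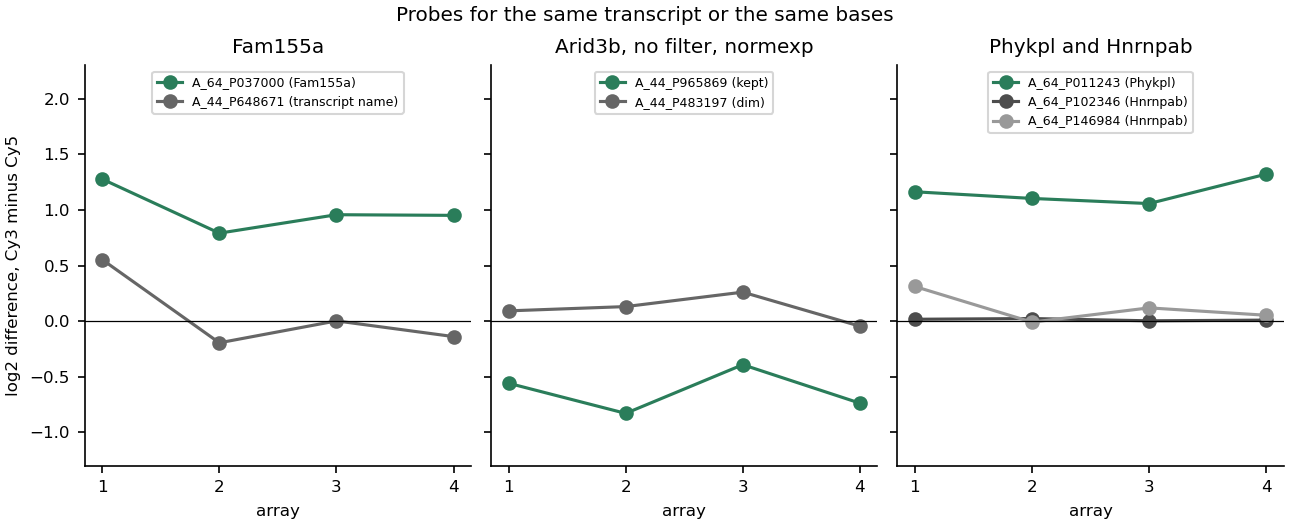
Log2 difference within each array, Cy3 minus Cy5 (vertical axis, shared by the panels), on arrays 1 to 4 for the 2 probes of Fam155a, for the 2 probes of Arid3b with no filter and normexp, and for the Phykpl probe beside 2 probes of Hnrnpab. The kept probes of the members are in green and the others in gray; the gray Arid3b probe is the dim one, too near background for its sign to be read.

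The choice of genes did not use the base composition of the probes. Of the 60 bases, the count of G and C was 15 in the kept Arid3b probe, 21 for Ahdc1, 22 for the Fam155a probe named for the gene, 24 for Phykpl, 28 for Kat2a, 31 for Dtx3 and 32 for Atg101, where the median of the kept probes is 27. The Arid3b probe had a higher count than 0.398% of the kept probes, the Ahdc1 probe than 1.89%, the Fam155a probe than 17.2%, the Phykpl probe than 26.6%, the Kat2a probe than 69.5%, the Dtx3 probe than 76.6% and the Atg101 probe than 80.4%. The Ahdc1 probe holds 27 A, more than 98.3% of the kept probes, and the Phykpl probe 22 A, more than 84.0%. The Fam155a probe holds 33 T, more than 99.9%, and the kept Arid3b probe 30 T, more than 99.7%. Over all 18599 probes, the correlation of the difference with the count of G and C was -0.06, with A 0.02 and with T 0.04, over probes that share the same 4 arrays. A part of base composition in the members' differences was not tested.

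Genes that work with the members were taken from lists for each of them, and 86 of the listed genes were measured. By limma 0 of 86 were called, and 13, or 15.1%, had an unadjusted p under 0.05, against 18.6% of all genes. The methods' t-test gave 14, or 16.3%, against 17.0% of all genes, and 0 after Benjamini-Hochberg. Their median log2 difference was 0.02, against -0.01 over all genes, and 26 of 86, or 30.2%, had 1 sign on all arrays, against 39.4% of all genes. With the array as a replicate block 5, or 5.81%, were called, against 7.69% of all genes, namely Jag2, Hes1, Wipi1, Ambra1 and Nalcn, of which Jag2, Wipi1 and Ambra1 are named after their values were seen.

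Atg101 binds ATG13 and steadies it in the ULK1 complex. Of 21 genes of that complex and of autophagy initiation, 19 were measured, with a median log2 difference of 0.00 and a range from -0.53 to 0.91. The end of that range, Pik3c3, the lipid kinase that acts after ULK1, rests on a single channel, with -2.73 in CTR4 and 1.23 to 1.35 in the other CTR channels (limma adjusted p = 0.609). Atg13 had a log2 difference of 0.25 and Rb1cc1, the scaffold of the complex, 0.32, where Atg101 had -0.92. The kinases Ulk1 and Ulk2 had -0.17 and -0.11, on the side of Atg101. Of the 19 genes, 10 were higher in ONC and 9 lower.

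For Kat2a, 19 of 26 other genes of the SAGA and ATAC complexes were measured, with a median log2 difference of 0.03 and a range from -0.31 for Dr1 (limma adjusted p = 0.244) to 0.27. Kat2b, the paralog of Kat2a, was not among those measured. For Arid3b, 9 of 14 other ARID genes had a median of 0.00 and a range from -0.45 for Arid5a (limma adjusted p = 0.258) to 0.17, and its paralog Arid3a was at -0.05. For Ahdc1, 12 of 15 other AT-hook genes had a median of 0.05 and a range from -0.18 to 0.20, the latter Baz2b (limma adjusted p = 0.519).

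For Dtx3, 15 of 21 genes of the deltex family and of the Notch pathway were measured, with a median log2 difference of -0.02 and a range from -0.62 for the ligand Jag2 to 0.69 for Hes1, a target of Notch. Hes1 had log2 levels of -0.67, -1.41, -1.24 and -1.22 in CTR1 through CTR4 and of -0.38, -0.58, -0.45 and -0.35 in ONC1 through ONC4 (limma adjusted p = 0.0720). Dtx1 and Dtx2, relatives of Dtx3, had differences of 0.01 and -0.27. Fam155a works with Nalcn, which had log2 levels of 0.11, 0.25, 0.25 and 0.07 in CTR1 through CTR4 and of 0.84, 0.49, 0.83 and 0.44 in ONC1 through ONC4. The ONC channels of Nalcn lay above the CTR channels, a difference of 0.49 (limma adjusted p = 0.0837), beside 0.27 for Unc79 and 0.13 for Fam155b, with Unc80 not measured. For Phykpl, 9 of 14 other genes of lysine and hydroxylysine breakdown had a median of 0.02 and a range from -0.22 for Aldh7a1 (limma adjusted p = 0.266) to 0.19.

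**Figure D5:**
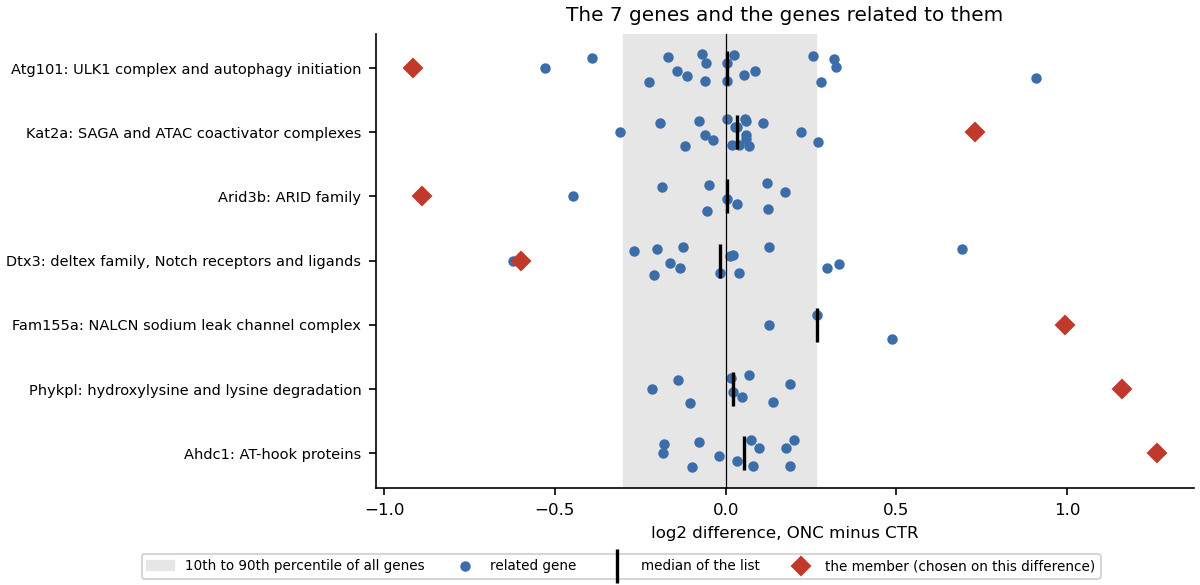
Log2 difference, ONC minus CTR (horizontal axis), of each related gene (points) in the 7 lists, with the median of the list (bar) and the member it belongs to (diamond), which was chosen on this difference. The gray band runs from the 10th to the 90th percentile of all genes, -0.30 to 0.27; each member lies outside the band, 6 of the 7 list medians lie within it, and that of the NALCN complex, over 3 genes, lies just above it.

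Likeness of pattern was measured as the root mean square of the difference between genes over the 8 channels, each gene less its own mean. The genes nearest to Fam155a were Aatk, at 0.09, and a transcript without a symbol that is described as Robo2, at 0.12. The nearest to Dtx3 were the uncharacterized LOC103694995, at 0.08, and Mocs2, at 0.09, and the nearest to Atg101 were Lgals5, at 0.11, and Sh2b1, at 0.14. For Kat2a they were Dact3, at 0.11, and Satb1, at 0.13. For Arid3b they were a transcript without a symbol, at 0.12, and Tmem80, at 0.15. Phykpl and Ahdc1 were among the nearest of each other, at 0.17. Ahead of them came 1 transcript without a symbol that was the nearest to both, at 0.14 from Phykpl and 0.16 from Ahdc1. The members were chosen on the difference between these same channels. Genes with a difference of like sign and size lie near them by that choice, and nothing is read from the nearness.

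Tubb3 and markers of other cell types were set beside the members. Over all genes 0.497% were called, 18.6% had an unadjusted p under 0.05, 17.0% passed the methods' t-test, 39.4% had 1 sign on all arrays and 12.7% had no overlap. Tubb3 had log2 levels of 1.02, 1.80, 1.17 and 1.80 in CTR1 through CTR4. In ONC1 through ONC4 they were 2.84, 2.43, 2.92 and 2.24, with no overlap and 1 sign on all arrays. Over the 12 RGC markers with values this was rare, since 1 had 1 sign on all arrays. Among these 12 limma called 0, with 1 at an unadjusted p under 0.05, 1 by the methods' t-test and 0 after its adjustment. For cones 6 of 7 markers gave values, without Cnga3, 4 of them had 1 sign on all arrays, and limma called 0, with 2 at an unadjusted p under 0.05, 2 by the methods' t-test and 0 after its adjustment. Their summed log2 level, with Pde6h the brightest, was 5.94, 5.93, 5.95 and 6.04 in CTR1 through CTR4. In ONC1 through ONC4 it was 5.51, 5.63, 5.69 and 5.73, with no overlap between the groups. Of the 9 bipolar markers 4 had 1 sign on all arrays and 1, Isl1, named after its values were seen, was called higher by limma, with 4 at an unadjusted p under 0.05, 2 by the methods' t-test and 0 after its adjustment. The call of Isl1, like every other, was lost with normexp and with any retina but ONC2 left out. The summed log2 level of bipolar markers, with Otx2 the brightest, was 6.64 to 7.01 in CTR and 6.81 to 7.07 in ONC, with overlap. Of 9 amacrine markers 5 had 1 sign on all arrays and limma called 0, with 3 at an unadjusted p under 0.05 and 0 by the methods' t-test. Their summed log2 level, with Slc32a1 the brightest, was 5.92 to 6.16 in CTR and 5.76 to 5.98 in ONC, with overlap. Markers of cones, bipolar and amacrine cells, which are cells of the retina, had values in all 8 channels, as the filter requires of every gene kept.

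Of 9 microglial markers 0 had 1 sign on all arrays and limma called 0, with 4 at an unadjusted p under 0.05, 1 by the methods' t-test and 0 after its adjustment. Their summed log2 level, with C1qb the brightest, was 3.64, 3.53, 4.56 and 4.56 in CTR1 through CTR4. In ONC1 through ONC4 it was 3.30, 3.87, 3.54 and 3.81. For MHC class II 4 of 5 markers gave values, without RT1-Ba, and limma called 0, with 0 at an unadjusted p under 0.05 and 0 by the methods' t-test. Their summed log2 level, with Cd74 the brightest, was 1.40, -0.81, 2.11 and 1.27 in CTR1 through CTR4. In ONC1 through ONC4 it was 0.05, 0.26, 0.11 and 1.47. It was low in the channels where the RGC markers were high, CTR2, ONC1, ONC2 and ONC3, and high in the others. Lens markers, 10 of 10 with values and Crygs the brightest, had summed log2 levels of 6.40, 7.80, 6.71 and 6.16 in CTR1 through CTR4. In ONC1 through ONC4 they were 5.97, 6.63, 5.97 and 7.04. Within their groups CTR2 and ONC4 were highest. Pigment epithelium markers, 5 of 6 with values and without Best1, had Ttr as the brightest. Their summed log2 level was 5.56, 5.33, 5.16 and 6.15 in CTR1 through CTR4. In ONC1 through ONC4 it was 6.05, 4.63, 6.02 and 5.95, lowest in ONC2. Ahdc1, Arid3b, Fam155a, Phykpl and Dtx3 were also lowest in ONC2 among the ONC channels. So were the summed levels of bipolar, amacrine, and Müller glia and astrocyte markers, at 6.81, 5.76 and 7.66. The other lists reported here had their lowest ONC channel elsewhere. Among the CTR channels the Müller glia and astrocyte sum was lowest in CTR2, at 7.84, on the same array as ONC2. The bipolar and amacrine sums were lowest in other CTR channels. In the lens list and in the pigment epithelium list limma called 0. Each had 1 gene at an unadjusted p under 0.05 and 0 by the methods' t-test. For horizontal cells, Müller glia and astrocytes, endothelium and pericytes, oligodendrocytes and blood limma called 0 in each list, with 0, 2, 0, 1 and 0 genes at an unadjusted p under 0.05 and 0, 1, 0, 0 and 0 by the methods' t-test. Their median log2 differences ran from -0.21 for Müller glia and astrocytes to 0.22 for blood. The part of these markers in the differences of the 7 genes was not tested.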

How the data were processed

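RNA from 8 retinas was hybridized to 4 two-color arrays. The authors deposited, for each array, the scanner software's intensity values per spot, the mean foreground and median local background, uncorrected, and a processed signal. The file headers name Feature Extraction 12.0.3.1 and the methods an earlier version. The authors' own normalized values were not used here. Only spots that are no controls, carry no outlier flag and reach 2 times background in all 8 channels entered, which kept 27371 of 44254 spots, 18599 probes and 16307 genes. After background subtraction, loess was applied within arrays and the median of each channel was set to 0. Log2 values were averaged over the spots of a probe, then over the probes of a gene. Median foreground was 447 to 626 in CTR and 218 to 495 in ONC, and no spot was saturated. The number of arrays limits the precision.

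The comparison of ONC with CTR used limma 3.58.1 (R 4.3.3), two-sided and, like the methods' test, unpaired. Genes or probes were called where the p adjusted by Benjamini-Hochberg over all of them was under 0.05. Summaries and figures used Python 3.11.15, scipy 1.17.1, numpy 2.4.6, pandas 2.3.3 and matplotlib 3.10.9. The limma step was tested on simulated data. Channels of the same number share an array by the labels, and over 16307 genes their deviations from the group means correlated at 0.15 to 0.55, against -0.51 to 0.17 for other pairs, with 7 of 8 channels closest to their own number. The correlation was over 0.1 in every such pair, so the array was also fitted as a replicate block.

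Genes named singly are the 7 members, in each related list the called genes or otherwise the one with the largest difference, the 2 genes nearest in pattern to each member, and Pou4f2, Nefm and Tubb3. Other genes of the lists are named for their role beside a member. The members and the lists were chosen with earlier results of these data known. Synonyms of the lists' symbols come from the RefSeq table of assembly GRCr8, used for names only. 1 list of markers is not reported here. Alternatives covered background correction, normalization, filters, the block, the channels left out and the methods' t-test.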

Additional observations from a re-analysis of the deposited data

Results flagged for a closer look

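In 62 groups of 4 channels, the gap between an outlying channel and its neighbor was divided by the range of the group and compared with Dixon's critical value. This marked 5 groups, where chance marks about 1 in 20. Ahdc1 in the ONC channels had a value of 0.845, with ONC2 at a log2 level of 1.22 and the others at 1.95 to 2.09. Pik3c3 in the CTR channels had 0.970, with CTR4 at -2.73 and the others at 1.23 to 1.35. Pou4f2 in the ONC channels had 0.993, with ONC4 at -3.14 and the others at -0.05 to -0.03. Nefm had 0.893 in the CTR channels, with CTR2 at 2.84 and the others at -0.21 to 0.12, and 0.973 in the ONC channels, with ONC4 at -0.35 and the others at 2.90 to 2.99.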

How the results depend on the processing

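The median size of the members' differences, 0.92 on the log2 scale, was 0.67 without normalization and 0.84 to 0.98 with a retina left out. Of 135 values of single members under the alternatives, 115 moved by less than 1 SD over the arrays, among them the values with the block and with the median over probes, which cannot move with 1 channel of each group on every array and 1 kept probe a gene. Of the rest, 19 moved by more and 1 changed sign, the dim Arid3b probe by itself at 0.11, too near background for its sign to be read. Arid3b had no value with only spots well above background in all channels.

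The number of called genes moved from 81 to 3194 with median scaling, of which 71.0% were higher in ONC against 46.9%, to 412 with Aquantile, to 21 with the processed signal, to 123 with only spots well above background and to 415 without CTR2 and ONC4. It was 0 with normexp (2768 at an unadjusted p under 0.05), 0 with normexp and no filter (2338), 0 over CTR2, CTR4, ONC1 and ONC3 alone (1961), and 0 to 38 with a retina left out, the 38 without ONC2, with 29 higher and 9 lower. The methods' t-test gave 2778 genes at its threshold, 536 with the fold threshold and 1, Akr1b1, after Benjamini-Hochberg, named after its value was seen. Called probes, 113, moved to 3532, 495 and 74 with median scaling, Aquantile and the processed signal, to 430 without CTR2 and ONC4, to 0 with normexp, to 0 with normexp and no filter together and to 0 over the 4 channels alone, and to 0 to 48 with a retina left out. Called related genes, 0, moved to 13 with median scaling (15.1%, against 19.6% of all genes), 2 with Aquantile (Jag2 and Hes1; 2.33% against 2.53%) and 1 without CTR2 and ONC4 (Jag2; 1.16% against 2.54%), and stayed at 0 with a retina left out.

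With the array as a replicate block, 1254 genes, 1522 probes and 5 related genes were called, all 81 genes among the 1254. The cause of these shifts was not tested. Signal over background was lowest for Arid3b, Kat2a and Phykpl.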
